A study of Mus musculus with 6 samples.

Results

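The 10 protein coding genes described here, Adam19, Nipal4, Med7, Sgcd, Thg1l, Lsm11, Clint1, Ebf1, Rnf145 and Ublcp1, lie around Cyfip2 on mouse chromosome 11. They were given as a list of names drawn up with earlier results of these data known, and they are 10 of the 17889 genes with a row in the deposited table. The list does not hold every gene of the region, and Fndc9 and Havcr2, which are nearer than most of the 10, are described separately. All 10 passed the filter on low values (a mean normalized count of at least 10 over the samples). Messenger RNA was sequenced from the prefrontal cortex of juvenile C57BL/6J mice at postnatal day 28. The groups were 3 samples titled Hetero, whose genotype is given as Cyfip2 mutant, and 3 wild-type (WT) samples. The sources used here give neither the altered part of Cyfip2, nor the origin of the mutant allele and its flanking DNA, nor the sex of the mice. Whether each sample is a different animal is not stated, so the p-values reflect variation among samples that may be technical in part.

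Genes that sit next to each other on a chromosome can share regulatory DNA and chromatin domains, and they tend to be inherited together. For that reason the neighbours of a mutated gene are commonly examined beside the gene itself. The Cyfip2 protein belongs to the WAVE complex, which controls actin assembly in neurons, and its neighbours have unrelated roles in proteolysis, ion transport, transcription, RNA processing, membrane traffic and protein turnover. In GRCm38, Cyfip2 occupies 46193850 to 46312859 on the minus strand. On the side of its 3' end lie, with growing distance, Nipal4 (a gap of 27.3 kb), Adam19 (46.5 kb), Thg1l (238 kb), Lsm11 (249 kb), Clint1 (283 kb), Ebf1 (1186 kb), Rnf145 (1628 kb) and Ublcp1 (1723 kb). On the side of its 5' end lie Med7 (124 kb) and Sgcd (583 kb). Adam19 and Nipal4 are convergent, with only 811 bases between their 3' ends, and Thg1l and Lsm11 follow each other on the minus strand with 1907 bases between them.

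The deposited values had been scaled between samples, with column totals of 29879143 to 30735443. The worth of 1 read, taken from steps between low values, put depth at an estimated 25455900 to 43888300 reads per library, and Hetero sample 3 was the deepest. A cortical and a striatal marker were read beside the tissue label, and they cannot tell prefrontal from other cortex. Slc17a7, the vesicular transporter of cortical excitatory neurons, read 51008 to 54123 in Hetero and 54478 to 58032 in WT. The striatal receptor gene Drd1 read 158 to 188 in Hetero and 177 to 229 in WT. The mutated gene was lower in the Hetero samples. Cyfip2 read 20959, 21237 and 18285 in Hetero, against 31933, 30496 and 27503 in WT. The log2 change was -0.57 ± 0.07 (SE), with the smallest unadjusted p of all tested genes in limma (2.1e-05), an adjusted p of 0.31 and an exact two-sided permutation p of 0.1. That is the smallest p which 3 against 3 samples allow. All log2 changes here are Hetero over WT on the log2(value + 1) scale.

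None of the 10 neighbours passed the test of Hetero against WT. In limma, 0 of 10 had an adjusted p under 0.05, against 0% of the 14969 genes tested. At an unadjusted p under 0.05 there was 1 neighbour, Adam19, against 3.83% of tested genes (2.17% lower in Hetero and 1.66% higher). The Hetero and WT values did not overlap in 1 of 10, again Adam19, against 8.72% of tested genes (4.32% lower in Hetero and 4.4% higher). These shares are near the background, so the counts give no result about the neighbours as a group. The fitted value was higher in Hetero for 5 neighbours (Nipal4, Clint1, Ebf1, Rnf145 and Ublcp1) and lower for 5 (Adam19, Med7, Thg1l, Lsm11 and Sgcd). Their median log2 change was -0.03, beside -0.0019 over all tested genes. The adjusted p of every neighbour was 0.9996.

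**Figure D1:**
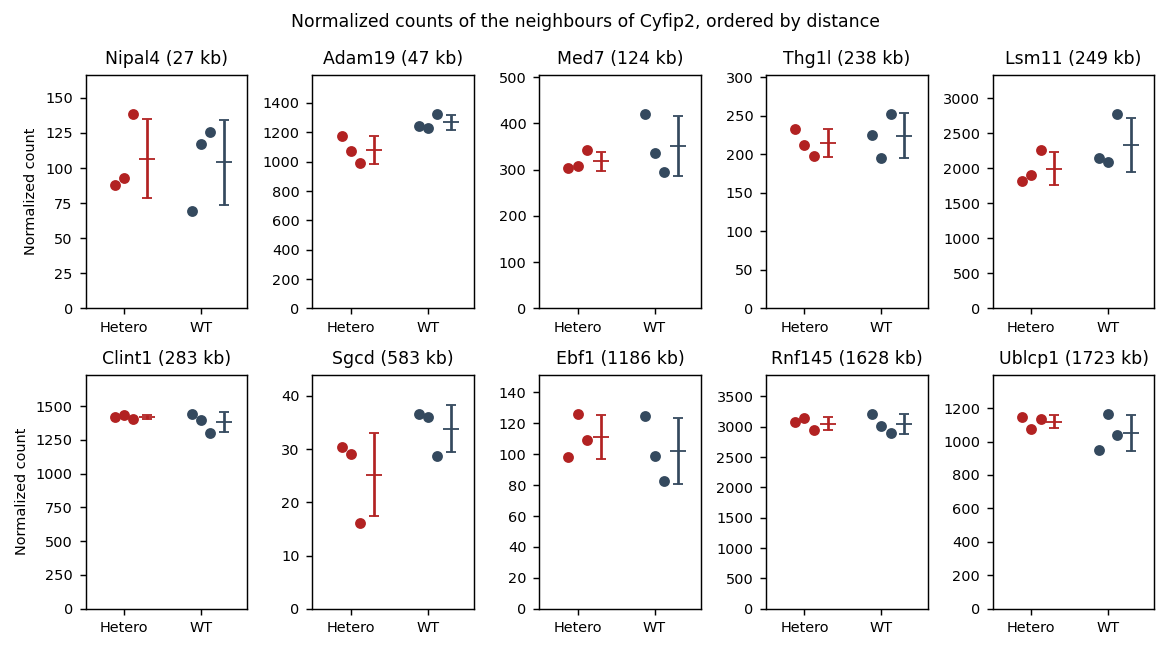
Normalized counts (y axis, from 0) of the 10 neighbours in 3 Hetero and 3 WT samples, ordered by the gap to Cyfip2 given in each panel title; points are samples, and the bar beside them is the mean ± SD. The groups are apart for Adam19, with Hetero at 989 to 1174 and WT at 1246 to 1328, and overlap in the other 9 panels.

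Adam19 and Nipal4 are the nearest of the 10 on the 3' side. Adam19 (ENSMUSG00000011256, 46055992 to 46147343, plus strand) encodes a membrane-anchored metalloprotease of the ADAM family, which sheds growth factors such as neuregulin from the cell surface. It read 1174, 1075 and 989 in Hetero, against 1246, 1228 and 1328 in WT. All 3 Hetero values lay below all 3 WT values, and the distance between the nearest samples, Hetero sample 1 and WT sample 2, was small. The means were 1079 ± 92.9 in Hetero and 1267 ± 53.6 in WT (SD, n = 3 each). The ratio of Hetero to WT was 0.85 with a 95% interval of 0.753 to 0.96. The log2 change was -0.23 ± 0.08 (SE), with an unadjusted p of 0.014 and an adjusted p of 0.9996 in limma, and the exact two-sided permutation p was 0.1, the smallest possible. Among the 1206 tested genes of chromosome 11, Adam19 had the ninth smallest p, where the smallest was that of Cyfip2. Its change was lower in each of 14 alternative settings, from -0.30 to -0.17, and its unadjusted p was 0.054 without WT sample 3.

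Nipal4 (ENSMUSG00000020411, 46148155 to 46166508, minus strand) encodes a NIPA-like membrane protein linked to magnesium transport and, in humans, to ichthyosis. It read 88.1, 93.3 and 139 in Hetero, against 69.1, 117 and 126 in WT. The highest value came from Hetero sample 3 and the lowest from WT sample 1, and the groups overlapped. The log2 change was 0.05 ± 0.26 (SE), with a 95% interval of the ratio from 0.693 to 1.56. The sign rested on single libraries: the change was -0.15 without Hetero sample 3 and -0.21 without WT sample 1. The separation seen for Adam19 was not seen in Nipal4, whose 3' end lies beside it. The wide Nipal4 interval contains that of Adam19 (0.753 to 0.96), so these values cannot tell the 2 changes apart.

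The promoters of Adam19 and Lsm11 are shown because these were the neighbours with the smallest unadjusted p. Each is the 250 bases before the RefSeq start (GRCm38.p6) that lies nearest to the GENCODE start of the gene, 1 of 3 starts for Adam19 and the only 1 for Lsm11, written 5' to 3' on the strand of the gene; the Adam19 stretch is chr11:46055734-46055983 (plus strand) and the Lsm11 stretch chr11:45944936-45945185 (minus strand). Capitals mark GC boxes, searched as GGGCGG on both strands.
Adam19: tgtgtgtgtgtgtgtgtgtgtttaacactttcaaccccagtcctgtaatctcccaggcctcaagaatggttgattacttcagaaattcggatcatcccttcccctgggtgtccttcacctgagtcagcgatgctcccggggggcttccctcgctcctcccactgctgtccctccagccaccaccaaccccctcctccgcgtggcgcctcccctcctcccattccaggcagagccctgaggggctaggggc
Lsm11: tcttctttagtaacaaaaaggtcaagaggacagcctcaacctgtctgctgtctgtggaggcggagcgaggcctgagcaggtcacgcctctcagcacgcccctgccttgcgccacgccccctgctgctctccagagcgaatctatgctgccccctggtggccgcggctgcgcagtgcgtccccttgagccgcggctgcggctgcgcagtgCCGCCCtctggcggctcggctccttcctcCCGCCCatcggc
The Lsm11 stretch held 2 GC boxes, and at least 1 GC box occurred in 32.7% of 32817 promoter stretches of the same length. The Adam19 stretch held 0 GC boxes and began with a run of TG repeats. Neither held a CCAAT box (CCAAT, in 33.8% of stretches), a TATA box (TATAAA, in 12.4%) or an E-box (CACGTG, in 6.02%), all searched on both strands. Of the bases, 60% were G or C in the Adam19 stretch and 67.2% in the Lsm11 stretch, where the median stretch had 52.4%.

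Further along the 3' side lies a cluster of Thg1l, Lsm11 and Clint1. Lsm11 (ENSMUSG00000044847, 45928269 to 45944935, minus strand) encodes a protein of the U7 small nuclear ribonucleoprotein, which processes the 3' ends of histone messages. It read 1818, 1903 and 2259.6 in Hetero, against 2145, 2086 and 2783 in WT. Hetero samples 1 and 2 were below all WT samples, while Hetero sample 3 lay between them, so the groups overlapped. The means were 1994 ± 234 in Hetero and 2338 ± 387 in WT (SD, n = 3 each). The log2 change was -0.22 ± 0.12 (SE), with an unadjusted limma p of 0.10. The size moved with single libraries, to -0.32 (unadjusted p 0.028) without Hetero sample 3 and to -0.09 without WT sample 3.

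Thg1l (ENSMUSG00000011254, 45946843 to 45955494, minus strand) encodes the enzyme that adds a guanosine to the 5' end of histidine transfer RNA. It read 234, 213 and 198 in Hetero, against 225, 195 and 253 in WT. The groups overlapped, and the lowest value was a WT one. Its log2 change of -0.06 ± 0.13 (SE) was 0.03 without WT sample 3. Clint1 (ENSMUSG00000006169, 45852051 to 45910625, plus strand) encodes an epsin-related adaptor of clathrin-coated vesicles between the Golgi and endosomes. It read 1421, 1434 and 1404 in Hetero, against 1443, 1398 and 1301 in WT. Clint1 varied least of the 10 neighbours, with a within-group SD of 0.055 on the log2 scale. Its log2 change was 0.04 ± 0.06 (SE), with a 95% interval of the ratio from 0.933 to 1.14, and it was -0.00049 without WT sample 3.

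On the side of the 5' end of Cyfip2, from which its transcription starts, the nearest of the 10 is Med7. Med7 (ENSMUSG00000020397, 46436925 to 46442721, plus strand) encodes a subunit of the middle module of Mediator, which connects transcription factors to RNA polymerase II. It read 304, 308 and 342 in Hetero, against 421, 335 and 294 in WT. WT sample 1 was the highest and WT sample 3 the lowest of all 6, so the Hetero values lay inside the WT range. Med7 had a log2 change of -0.12 ± 0.13 (SE), which was 0.02 without WT sample 1.

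Sgcd (ENSMUSG00000020354, 46896253 to 47988969, minus strand) encodes delta-sarcoglycan, a member of the dystrophin-glycoprotein complex of muscle and vascular smooth muscle, and its body spans 1093 kb. It was the lowest of the neighbours, at 30.4, 29.1 and 16.2 in Hetero, against 36.6, 36.1 and 28.7 in WT. Hetero sample 3 stood well below the rest, and WT sample 3 lay just under the higher Hetero samples. These values correspond to an estimated 23.8 to 42.9 reads per library, for which counting alone gives an SD of 0.27 on the log2 scale, beside 0.37 measured within groups. The log2 change of -0.45 ± 0.29 (SE) had an unadjusted limma p of 0.15 and a 95% interval of the ratio from 0.466 to 1.15. It was -0.17 without Hetero sample 3. Markers of pericytes and smooth muscle cells, which express sarcoglycans, summed to 10095 to 11621 in Hetero and 10228 to 11156 in WT, with 9 of 14 higher and 5 lower.

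The most distant neighbours, Ebf1, Rnf145 and Ublcp1, all had overlapping groups. Ebf1 (ENSMUSG00000057098, 44617317 to 45008091, plus strand) encodes a transcription factor of B cell development that is also found in pericytes of the brain. It read 98.0, 126 and 109 in Hetero, against 125, 98.7 and 83.0 in WT. The WT range reached lower, and the log2 change of 0.13 ± 0.18 (SE) was -0.0069 without WT sample 3. Rnf145 (ENSMUSG00000019189, 44518964 to 44565520, plus strand) encodes a ubiquitin ligase of the endoplasmic reticulum that takes part in sterol metabolism. It read 3081, 3137 and 2939 in Hetero, against 3212, 3019.8 and 2900.5 in WT. The log2 change was 0.0045 ± 0.06 (SE), and the 95% interval of the ratio ran from 0.914 to 1.10. Its sign turned in 4 of 14 alternative settings, without Hetero sample 1 (-0.0025), Hetero sample 2 (-0.016), WT sample 2 (-0.00062) or WT sample 3 (-0.030). Ublcp1 (ENSMUSG00000041231, 44454571 to 44470498, minus strand) encodes a ubiquitin-like domain phosphatase that acts on the nuclear proteasome. It read 1145, 1074 and 1135 in Hetero, against 948, 1166 and 1038 in WT. WT samples 1 and 2 were the lowest and the highest of all 6, and the log2 change was 0.09 ± 0.08 (SE).

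**Figure D2:**
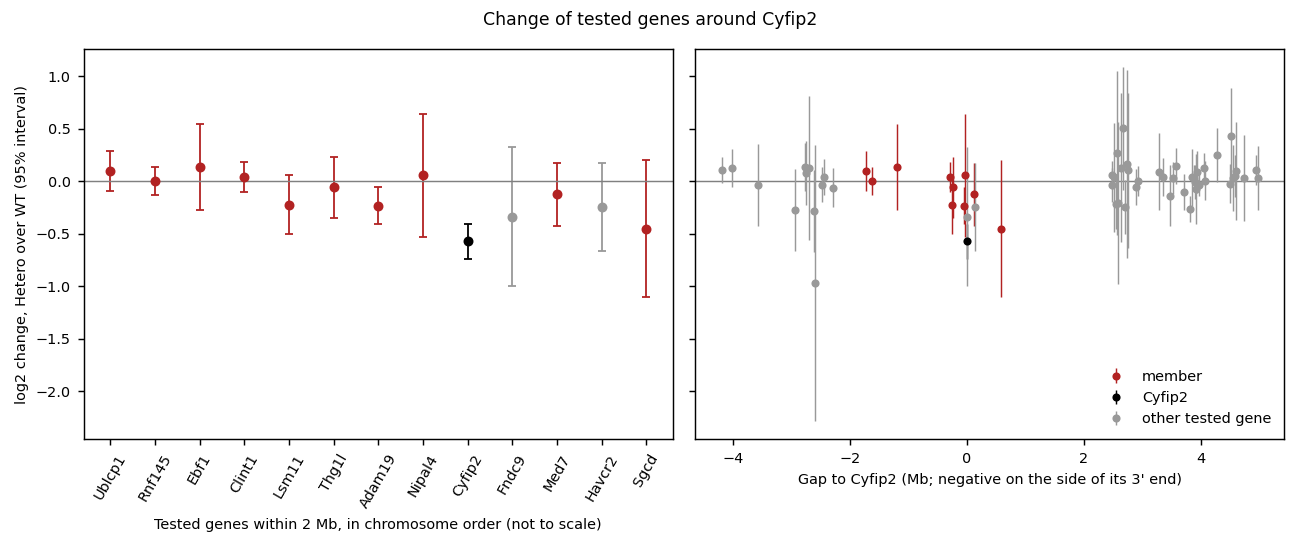
Left, log2 change between Hetero and WT with its 95% interval for the tested genes within 2 Mb of Cyfip2, in chromosome order (neighbours described here in red, Cyfip2 in black, other genes in grey). Right, the same for tested genes within 5 Mb against the gap to Cyfip2 in Mb. Among the genes within 2 Mb other than Cyfip2, the interval of Adam19 (ratio 0.753 to 0.96) does not reach 0 on the log2 scale.

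The 95% intervals describe how precisely each change was measured. Each holds for 1 gene alone and is not adjusted for the number of genes tested. They may be too narrow where variation among samples is technical. For Clint1, Rnf145 and Ublcp1 the 95% interval of the ratio lay between 0.914 and 1.22. For Med7 and Thg1l it ran from 0.745 to 1.13 and from 0.785 to 1.17. For Lsm11 it ran from 0.706 to 1.04, and for Ebf1 from 0.824 to 1.46. The ratio of Cyfip2 itself was 0.672, with a 95% interval of 0.600 to 0.754. The ratio lay below the interval of each neighbour except Sgcd, and close to the lower bound of Nipal4 (0.693). The Cyfip2 interval overlapped those of Sgcd, Nipal4, Lsm11, Med7 and, barely, Adam19 (from 0.753). It lay below those of Thg1l, Ebf1, Clint1, Rnf145 and Ublcp1.

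Levels per kilobase of merged exon length, a rough scale because isoforms differ in length, spread widely over the neighbours. Ublcp1 was highest among the neighbours, at 440 ± 15.2 normalized counts per kb in Hetero and 413 ± 43.0 in WT (SD, n = 3 each), and Sgcd was lowest at 3.05 ± 0.951 and 4.10 ± 0.536. Between these, in falling order of the WT mean, came Rnf145 (392 in Hetero and 391 in WT), Lsm11 (309 and 362), Clint1 (204 and 199), Adam19 (152 and 178), Med7 (111 and 122), Thg1l (71.2 and 74.5), Nipal4 (31.0 and 30.2) and Ebf1 (11.4 and 10.5). Ranges over the 6 samples overlapped between Ublcp1 and Rnf145, between Rnf145 and Lsm11 and between Adam19 and Med7, and were apart for the other adjacent pairs, by a narrow margin for Clint1 and Adam19. Cyfip2 stood above all of them, at 2838 ± 229 per kb in Hetero and 4220.4 ± 318 in WT.

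**Figure D3:**
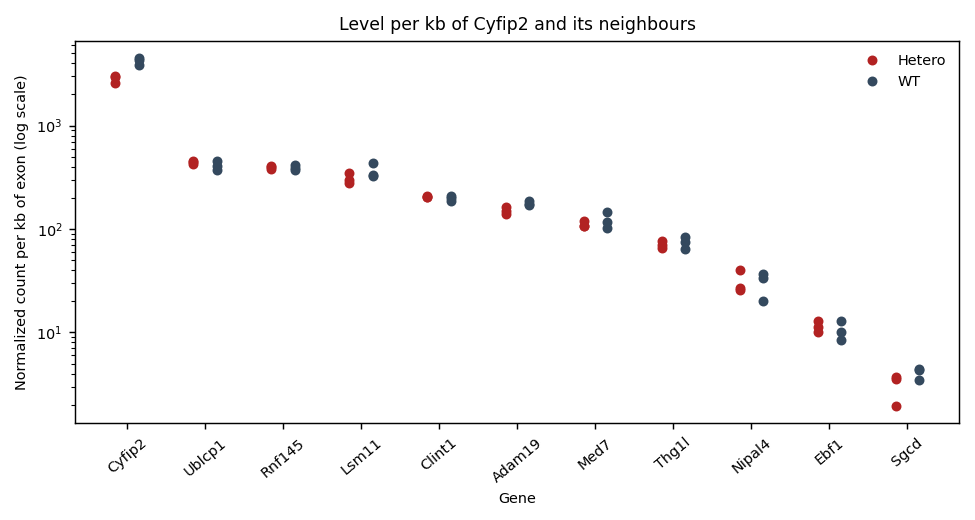
Normalized count per kb of merged exon length (y axis, log scale) of Cyfip2 and its neighbours in each Hetero (red) and WT (dark) sample, in falling order of the WT mean. Cyfip2 lies highest, at 2574 to 4496 per kb, and Sgcd lowest, at 1.96 to 4.44.

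The libraries did not order the neighbours in a common way. Hetero sample 3 had the lowest Sgcd and Adam19 values but the highest Nipal4 value, and WT sample 3 had the highest Lsm11, Adam19 and Thg1l values but the lowest Med7, Ebf1, Clint1 and Rnf145 values. The spread within groups exceeded the counting error in all 10, by 1.35 times in Sgcd and 6.32 times in Lsm11. The mean deviation over the 10 neighbours, in log2 units from each gene's mean, was -0.055 to -0.023 in Hetero and 0.032 to 0.044 in WT, without overlap. The median deviation over the same genes overlapped, at -0.025 to 0.024 in Hetero and -0.027 to 0.061 in WT. The mean deviation over the Mediator subunits, a list described below, was also without overlap. It was 0.0069 to 0.012 in Hetero and -0.018 to 0.0058 in WT. In the other partner lists and the paralogs it overlapped. How often such a mean separates the groups in other sets of genes was not tested. Each neighbour was also left out in turn, a choice made after the data were seen, and the groups then overlapped in 2 of 10 cases. Without Sgcd the mean deviation was -0.051 to 0.026 in Hetero and 0.0078 to 0.035 in WT, and without Lsm11 it was -0.069 to -0.0059 in Hetero and -0.0064 to 0.048 in WT.

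**Figure D4:**
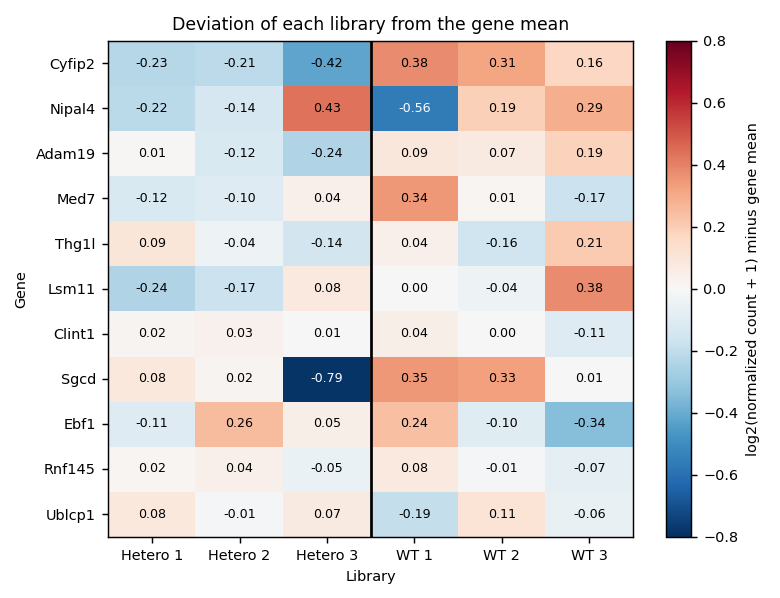
Deviation of each library from the gene mean, in log2 units, for Cyfip2 and its neighbours in order of distance (rows) and the 3 Hetero and 3 WT libraries (columns). Cyfip2 and, apart from Hetero sample 1 at 0.01, Adam19 are negative in Hetero and positive in WT, and the largest single deviation is that of Sgcd in Hetero sample 3 (-0.79).

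Within 2 Mb of Cyfip2 the annotation holds 50 other genes, 13 of them protein coding, of which 15 had a row in the table. Only 2 of these passed the filter. Fndc9 (46235531 to 46239872, plus strand), which encodes a fibronectin type III domain protein, lies inside Cyfip2 on the opposite strand. It read 66.3, 52.0 and 84.6 in Hetero, against 77.4, 59.1 and 129.5 in WT, a log2 change of -0.34 ± 0.29 (SE) with overlapping groups. The kit keeps strand per the labels' protocols, but it is not stated that the counting used it, so reads of Cyfip2 and Fndc9 may not be fully told apart. Havcr2 (46454935 to 46481255, plus strand), an immune receptor gene (TIM-3) expressed by microglia, read 81.6, 112 and 76.1 in Hetero, against 94.9, 101 and 122 in WT, a log2 change of -0.25 ± 0.19 (SE), also with overlap. In the same samples 11 of 11 microglia markers had a lower fitted value (0 at an unadjusted p under 0.05), with summed levels of 13139.5 to 14562 in Hetero and 13839 to 15684 in WT. Their part in the Havcr2 value was not tested.

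By distance, the 8 tested genes within 0.5 Mb had a median log2 change of -0.17, with 6 lower and 2 higher and 1 without overlap between groups (12.5%). The 4 genes between 0.5 and 2 Mb had a median of 0.05, with 1 lower and 3 higher and 0 without overlap, and this median was -0.018 without WT sample 3 and 0.011 without Hetero sample 2. The 49 genes between 2 and 5 Mb had a median of 0.03, with 19 lower and 30 higher and 6 without overlap (12.2%). On the rest of chromosome 11 the median over 1144 genes was -0.0031, with 583 lower and 561 higher and 9.27% without overlap. The nearest window is small. With 1 sample left out its median ran from -0.23 (without WT sample 1) to -0.06 (without WT sample 3). In the alternative windows, the 9 genes within 1 Mb had a median of -0.22, with 7 lower and 2 higher. The medians were 0.04 from 1 to 3 Mb and 0.03 from 3 to 10 Mb. These values are given as a description. The genes within 0.5 Mb are the 6 nearest neighbours described above with Fndc9 and Havcr2.

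Partners of the neighbours elsewhere in the genome gave few differences, and 0 of them passed the threshold over all genes. Their counts at an unadjusted p under 0.05 stand beside 3.83% of all tested genes. The Mediator subunits that work with Med7 had 21 of 32 higher and 11 lower, a median log2 change of 0.02, and 0 at an unadjusted p under 0.05, with Med24 closest at -0.12. The dystrophin-glycoprotein genes had 8 of 15 higher and 7 lower, a median of 0.0009 and 1 at an unadjusted p under 0.05 (Sspn, sarcospan, at -0.23). The histone processing genes had 7 of 13 higher and 6 lower, a median of 0.03 and 0 at that p, with Cpsf3 at 0.05. Each of these medians is close to that of all genes.

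The sterol-regulated degradation genes, to which Rnf145 is linked, had 5 of 12 higher and 7 lower and a median of -0.0063. Clathrin adaptors and related genes had 8 of 17 higher and 9 lower, a median of -0.01 and 1 at an unadjusted p under 0.05, the epsin gene Epn3 at 0.87 ± 0.35 (SE). Proteasome genes, the particle on which Ublcp1 acts, had 17 of 31 higher and 14 lower, a median of 0.0098 and 0 at that p, with Psma7 at 0.09. Paralogs of the neighbours had 13 of 26 higher and 13 lower, a median of 0.0002, 2 at that p (against 3.83% of all tested genes) and 6 without overlap (23.1%, against 8.72%), with Epn3 again the smallest p.

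Cell type markers were read beside Adam19, the neighbour whose groups were apart. In a bulk sample, fewer cells of a type and less RNA per cell cannot be told apart. Excitatory neuron markers summed to 185643 to 193088 in Hetero and 197365 to 205420.2 in WT, without overlap. The most abundant genes weigh most in such a sum. The mean deviation over the same markers, in log2 units, overlapped, at 0.0013 to 0.032 in Hetero and -0.043 to 0.020 in WT. Their median log2 change was 0.04, with 6 of 10 higher and 4 lower and, at an unadjusted limma p under 0.05, 1 higher and 2 lower. Over all tested genes 3.83% were at that p, 1.66% higher and 2.17% lower. Oligodendrocyte and precursor markers had 10 of 11 lower, 3 of them at that p, and their sums overlapped, at 101386 to 131386 in Hetero and 97184 to 153572 in WT. Astrocyte markers had 6 of 8 lower, 2 of them at that p, with sums of 173052 to 185616 in Hetero and 178971 to 202062 in WT. The part of these cell types in the Adam19 value was not tested. Endothelial markers had 7 of 10 lower and red blood cell markers 0 of 5 lower, with 0 at that p in either. Inhibitory neuron markers had 2 of 7 lower and 1 higher at that p, striatal markers had 7 of 9 lower and 1 lower at that p, and meningeal fibroblast markers had 1 of 10 lower and 1 higher at that p. Of the lymphocyte markers, 7 of 9 had a row and 2 were tested, and their sums were 47.7 to 62.1 in Hetero and 54.7 to 79.0 in WT.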

How the data were processed

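The deposited table holds the authors' normalized count of each gene, treated as a signal because the values are not whole. Salmon 0.11.2, DESeq2 1.19.11, R 3.6.0 and GRCm38 are named by the submitters' processing notes, with no role for each; the sources used here give neither the scaling formula nor a gene filter. Among values under 60, only 15.5% to 27.9% per library were whole multiples of 1 step (within 0.02 of it), so whole reads could not be recovered and no count test was run. The column total divided by that step gave the estimated reads. Scaled values hide differences in depth.

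Identifiers were matched to GENCODE M21 (17875 matched, 14 did not), and promoters come from RefSeq, where each promoter table entry covers 250 bases before to 50 bases after a start; 9 of the 10 neighbours had one. Values were analysed as log2(value + 1) for genes with a mean of at least 10, with limma 3.58.1 in R 4.3.3 (intensity trend, robust fitting, all 6 samples, two-sided) and Benjamini-Hochberg adjustment over the 14969 tested genes at a threshold of 0.05. The fit was also run on simulated data, where the spread was a setting common to all genes and not taken from these samples. That run therefore does not show how small a change these samples could detect. Exact permutation tests used all 20 assignments. The gap is the distance between gene bodies. Named were all neighbours, Cyfip2, other tested protein coding genes within 2 Mb and the 1 member of each partner list with the smallest p, of which 1 is not reported here; names outside this were chosen after their values were seen (Slc17a7, Drd1 and the gene named in the closing section). The neighbours and lists were chosen with earlier results of these data known. Alternatives were other pseudocounts (0.1 and 5), other filters (none, or a mean of at least 50), no trend or robust fitting, rescaling by trimmed means of log ratios (TMM, trimming 30% of ratios and 5% of levels), median centring, a replicate block, an adjusted threshold of 0.1, other windows (1, 3 and 10 Mb) and leaving out each sample.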

Additional observations from a re-analysis of the deposited data

How the results depend on the processing

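No neighbour passed an adjusted p under 0.05 in any of the 14 alternative fits, nor at 0.1 in limma. Adam19, Lsm11 and Ublcp1 kept their direction in all 14, and Sgcd in the 13 that tested it (a mean of at least 50 leaves it out). Leaving out 1 sample turned the direction of the others, over ranges of -0.21 to 0.21 for Nipal4, -0.24 to 0.017 for Med7, -0.16 to 0.030 for Thg1l, -0.00049 to 0.074 for Clint1, -0.0069 to 0.29 for Ebf1 and -0.030 to 0.044 for Rnf145; the cause was not tested. Leaving out 1 sample also gave 0 to 1 called genes over all tested genes, 0 to 2 neighbours at an unadjusted p under 0.05, 1 to 2 neighbours without overlap (fewer samples overlap less by construction) and a median of 0.0027 to 0.051 between 2 and 5 Mb. Deviations of same-numbered libraries had correlations of -0.0050, 0.0044 and 0.23, and 2 of 6 libraries, both of replicate 3, correlated best with their own number. With 3 libraries per group, these values cannot decide whether replicate numbers mark pairs. With the replicate block Cyfip2 had an adjusted p of 0.0016 at -0.57, 2 genes were called and 2 neighbours (Adam19 and Lsm11) had an unadjusted p under 0.05, against 0 called genes and 1 neighbour without it. Scalings moved the median of all genes by at most 0.0045. The mean deviation of the neighbours, Hetero minus WT, was -0.077, and, chosen after seeing the data, -0.10 (without Ebf1) to -0.035 (without Sgcd) with 1 neighbour left out, -0.059 without Adam19, -0.060 without Lsm11, -0.096 without Ublcp1 and -0.0095 as a median. Counting error was largest for Sgcd, at 23.8 to 42.9 estimated reads per library.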

Other observations

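Of the 49 tested genes between 2 and 5 Mb from Cyfip2, 6 had groups without overlap (12.2%, beside 8.72% of all tested genes), and 1 had an unadjusted p under 0.05 in limma. This gene, Tbc1d9b, which encodes a TBC domain protein of the Rab GTPase-activating family, was named after its values were seen. It lies 3.82 Mb away on the side of the 5' end of Cyfip2 and averaged 6521 ± 128 normalized counts in Hetero and 7840 ± 436 in WT (SD, n = 3 each). Its log2 change was -0.26 ± 0.06 (SE), with an unadjusted p of 0.00087 and an adjusted p of 0.9996, the second smallest p of chromosome 11 after Cyfip2.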
